A study of Danio rerio with 14 samples.

Results

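ZF4, a fibroblastic zebrafish cell line, was compared with whole untreated zebrafish embryos at 9 hours post fertilization (hpf). The arrays were chosen by their titles alone: 2 arrays of ZF4 and 2 of untreated 9 hpf embryos, 4 of the 14 arrays of the series. The other 10 arrays held untreated embryos of 4 and 6 hpf and embryos treated with retinoic acid (RA) and collected at 4, 6 and 9 hpf, 2 arrays in each of 5 groups. All 15502 probe sets that are not array controls were compared, and 8793 genes could be named from them. The embryos were of the Ekkwill (EK) strain, from natural matings, and total RNA was taken from the whole animal. ZF4 is 1 established line, and the labels give no clone, passage number or treatment for it and do not say whether the 2 arrays of a group came from separate cultures or clutches. The p-values and standard errors below therefore measure only the spread between replicate arrays, which may be technical. That spread was pooled over all 7 groups of the series, so it is not that of the 4 compared arrays alone. A gene whose replicates differed in another group could have a wide standard error and not be called. Conversely, a gene whose 2 embryo arrays differed could have a narrower standard error than those arrays alone would give, and be called.

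Fibroblasts are the connective tissue cells that secrete collagen and other matrix proteins, fold and cross-link them, cut them with proteases, and pull on them through integrins and bundled actin filaments. ZF4 was established from zebrafish embryos and grows attached to plastic. At 9 hpf the embryo is near the end of gastrulation. A thin surface epithelium, the enveloping layer, covers deep cells that are being assigned to ectoderm, mesoderm and endoderm, and a yolk syncytial layer lies beneath them. These cells divide quickly, still hold some maternal RNA, and are being patterned by Nodal, Bmp, Wnt, Fgf and RA signals. The comparison therefore set 1 adherent cell type against a whole organism of many cell types, and a lower level in such a mixture could reflect fewer cells of a type or less RNA per cell, which cannot be told apart here.

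Values are log2 intensities, so a difference of 1 is a 2-fold change, and they were compared between samples of the same probe set only, never between genes. Each change below is ZF4 minus embryo, with its standard error (SE) from the limma fit, and a gene was called higher or lower at a Benjamini-Hochberg adjusted p under 0.05. Background was set at 5.302, the level that 95% of the values of the array's 17 tag control probe sets did not exceed. Where a gene was above background on both arrays of 1 sample type and not above it on either array of the other, its difference is given as "at least" a fold, taken from that background or from the dim arrays' own values if higher. No fold is given where both sample types were at background.

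Of the 15502 probe sets, 3348 (21.6%) were called higher in ZF4 and 3688 (23.8%) were called lower. Counted by gene, with 1 probe set each, 2227 of 8793 genes (25.3%) were higher and 2301 (26.2%) were lower, with a median change over all genes of -0.04. The 2 ZF4 arrays correlated at 0.952 and the 2 embryo arrays at 0.929 across probe sets, whereas ZF4 and embryo arrays correlated at 0.702 to 0.714. Each untreated 9 hpf array correlated more closely with 1 of the RA-treated 9 hpf arrays (0.959 for array 1 and 0.944 for array 2) than with its own replicate. The counts over all probe sets and over the gene lists were therefore also taken without each array in turn. Gene list counts of 5 or more that moved by over 1.5 times are given beside the result. The counts of the marker lists were not judged in this way. The replicates agreed less at low intensity: the median absolute difference between replicates was 0.151 in ZF4 and 0.269 in embryos for probe sets above background, against 0.733 and 0.852 at or below it. Between 60.4% and 61.4% of probe sets were above background on each of the 4 arrays. Array number limits the precision, since each mean rests on 2 arrays, although the 14 arrays shared 1 estimate of the spread.

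**Figure D1:**
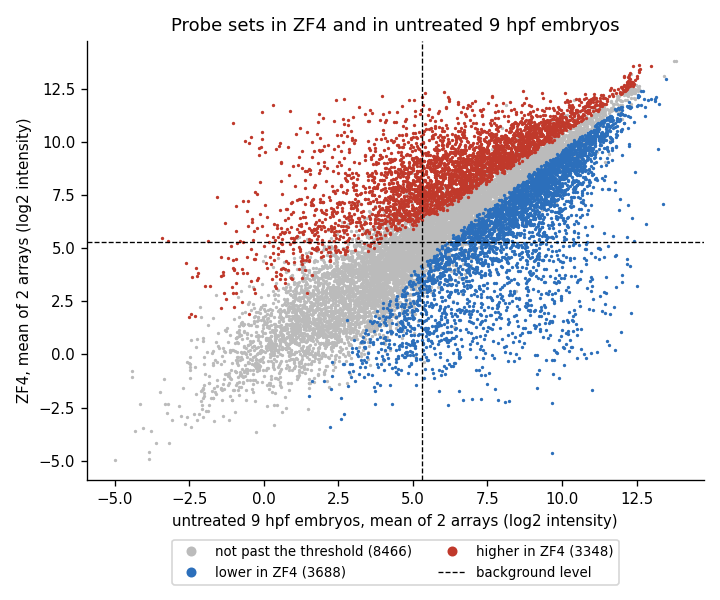
Mean log2 intensity of each of the 15502 probe sets in ZF4 (vertical axis) against untreated 9 hpf embryos (horizontal axis), 2 arrays each, with probe sets called higher (3348) or lower (3688) coloured and the background of 5.302 as dashed lines. Among the called probe sets, 848 of the higher ones and 922 of the lower ones had 1 sample type at background and the other above it on both arrays.

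Of the called probe sets, 2059 of the higher and 2195 of the lower ones were above background on all 4 arrays. A smaller part, 848 of the higher ones, was above background on both ZF4 arrays and at background on both embryo arrays. Likewise 922 of the lower ones were above background on both embryo arrays and at background on both ZF4 arrays. A further 126 higher and 244 lower probe sets were at background on all 4 arrays. By gene these were 54 and 113, and the marker and list counts below include such genes. The 2 sample types were then compared over marker lists of 10 cell or tissue types. Members of these lists were chosen with earlier results of these data known, so the counts do not test the label of the line. Of 23 measured fibroblast and mesenchyme markers, 16 were higher in ZF4 and 2 were lower. The 2 ZF4 arrays had 22 and 21 of these markers above background, and the embryo arrays had 11 each. Some widely used fibroblast genes went against the label or were not called: thy1, a fibroblast surface protein of mammals, was at 4.75 and 3.48 in ZF4 and 7.84 and 8.11 in the embryos, at least 6.38-fold lower, and the vimentin gene vim (5.32 and 6.06 in ZF4 and 5.95 and 6.02 in the embryos), acta2 (5.47 and 5.72 in ZF4 and 5.22 and 5.60 in the embryos) and twist1a (6.67 and 6.55 in ZF4 and 6.62 and 6.69 in the embryos) were not called.

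Most markers of epithelium, neural tissue and yolk layer were lower in ZF4, and those of muscle were not. Of 23 epithelial and periderm markers, 18 were lower in ZF4 and 1 was higher, and their mean level was 4.66 and 4.32 in ZF4 and 10.2 and 9.48 in embryos. Of 24 neural plate and neuron markers, 15 were lower and 1 was higher, with 3 above background on each ZF4 array against 17 and 19 on the embryo arrays. Of 12 yolk syncytial layer and liver markers, 7 were lower and 1 was higher. Their mean level was 9.54 on embryo array 1 and 6.46 on embryo array 2, so the embryo replicates themselves differed in yolk-associated RNA. The count of lower yolk markers was not judged without each array, and the yolk layer gene list described below lost calls in that case. Of 15 skeletal muscle markers, 3 were higher (20%, below the 25.3% of all genes) and none was lower. On each ZF4 array 10 of them were above background, and of all 8793 genes 5916 were above it on both ZF4 arrays. The muscle markers myod1 and myf5 were above background on all 4 arrays and were not called. Myod1 was at 8.93 and 8.88 in ZF4 and 6.72 and 6.01 in the embryos. Myf5 was at 7.24 and 7.10 in ZF4 and 9.05 and 8.24 in the embryos. Of 7 germ cell markers 4 were lower, among them piwil1, which was at background in both sample types. Of 12 blood and macrophage markers and 6 pigment and neural crest markers 1 each was lower. Of 8 cartilage and bone markers 1 was higher, and of 4 endothelial markers none was called. At an unadjusted p under 0.05 by limma, 0 muscle markers were lower and 0 blood or endothelial markers were higher.

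Chains of the fibrillar collagens, the main product of fibroblasts, were among the genes higher in ZF4. The type I collagen chain col1a2 had levels of 11.71 and 11.57 in ZF4 and 3.29 and 3.07 in the embryos, at least 80.8-fold higher in ZF4. Its partner chain col1a1a was at 11.59 and 11.53 in ZF4 and 5.25 and 5.81 in the embryos, a change of 6.03 ± 0.35 (adjusted p = 1.43e-07) with 1 embryo array above background. The type V chain col5a2a, which joins type I fibrils, and the type VI chain col6a3, which forms beaded microfibrils, were at least 50.6-fold and 15.7-fold higher. Across the list of collagens, 6 of 18 measured genes were higher (33.3%, against 25.3% of all genes) and 1 was lower, with a median change of 0.37. The lower gene, col15a1b, was at background in both sample types. The higher genes were the chains named above with the basement membrane collagens col18a1a (2.5 ± 0.35) and col15a1a (2.26 ± 0.33). The cartilage collagen col9a2 was not called (3.56 and 4.84 in ZF4 and 5.27 and 4.82 in the embryos).

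Enzymes that fold and cross-link collagen differed in the same direction. Of 16 measured genes, 13 were higher and none was lower, 0 also at an unadjusted p under 0.05 by limma, with a median change of 1.93. Loxl2b, a lysyl oxidase that cross-links collagen outside the cell, was at 10.75 and 10.80 in ZF4 and 1.28 and 4.34 in the embryos, at least 44.5-fold higher. The collagen-folding isomerase gene fkbp10b and pcolcea, which speeds the trimming of procollagen, were at least 19-fold and 16.2-fold higher. Sparc, a collagen-binding glycoprotein, was at 11.66 and 11.61 in ZF4 and 6.20 and 6.01 in the embryos, a change of 5.53 ± 0.69 (adjusted p = 4.58e-05). The prolyl hydroxylase p4ha1b (3.03 ± 0.52) and the lysyl hydroxylase plod3 (0.68 ± 0.17), which modify collagen before it leaves the cell, were higher as well. The collagen chaperone serpinh1b was not called (11.81 and 11.87 in ZF4 and 11.45 and 11.10 in the embryos, adjusted p = 0.136).

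The matrix glycoproteins divided into higher and lower members. Of 34 measured genes 11 were higher (32.4%, against 25.3% of all genes) and 6 were lower (17.6%, against 26.2%), with a median of 0.08. The count of higher genes was 7 when ZF4 array 1 was left out. Periostin (postnb) was at 10.73 and 10.76 in ZF4 and 4.26 and 5.10 in the embryos, at least 43.5-fold higher, and the hyaluronan-binding tnfaip6 and the thrombospondin thbs1b were at least 44.5-fold and 26.7-fold higher. In the other direction, the laminin chains lamb1a (5.97 and 5.43 in ZF4 and 11.42 and 11.42 in the embryos) and lamc1 (7.18 and 7.17 in ZF4 and 9.79 and 9.64 in the embryos), which build basement membranes, changed by -5.73 ± 0.35 (adjusted p = 2.27e-07) and -2.54 ± 0.23 (adjusted p = 4.88e-06). Has2, the synthase of the embryo's hyaluronan, was at least 3.58-fold lower. Of the fibronectin genes, fn1b was at 5.46 and 4.84 in ZF4 and 9.01 and 8.53 in the embryos and lower by the fit (-3.62 ± 0.62, adjusted p = 0.000484), with 1 ZF4 array above background. Fn1a was above background on all 4 arrays (10.61 and 10.60 in ZF4 and 10.92 and 11.04 in the embryos) and was not called (adjusted p = 0.0725).

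Matrix proteases and their inhibitors were higher or not called. Of 14 measured genes 8 were higher and none was lower, 1 at an unadjusted p under 0.05 by limma (median 2.87). Cathepsin K (ctsk), a collagen-degrading protease, was at 11.23 and 11.08 in ZF4 and 5.86 and 5.44 in the embryos, a change of 5.50 ± 0.47. The gelatinases mmp2 and mmp9 were at least 16.8-fold and 12-fold higher, and the metalloproteinase inhibitor timp2a was at least 35.3-fold higher. Type I, V and VI collagen chains were thus higher together with enzymes that process and degrade collagen, while lamb1a, lamc1 and has2 were lower. Of the laminin chains, lama4 and lama5 were not called.

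**Figure D2:**
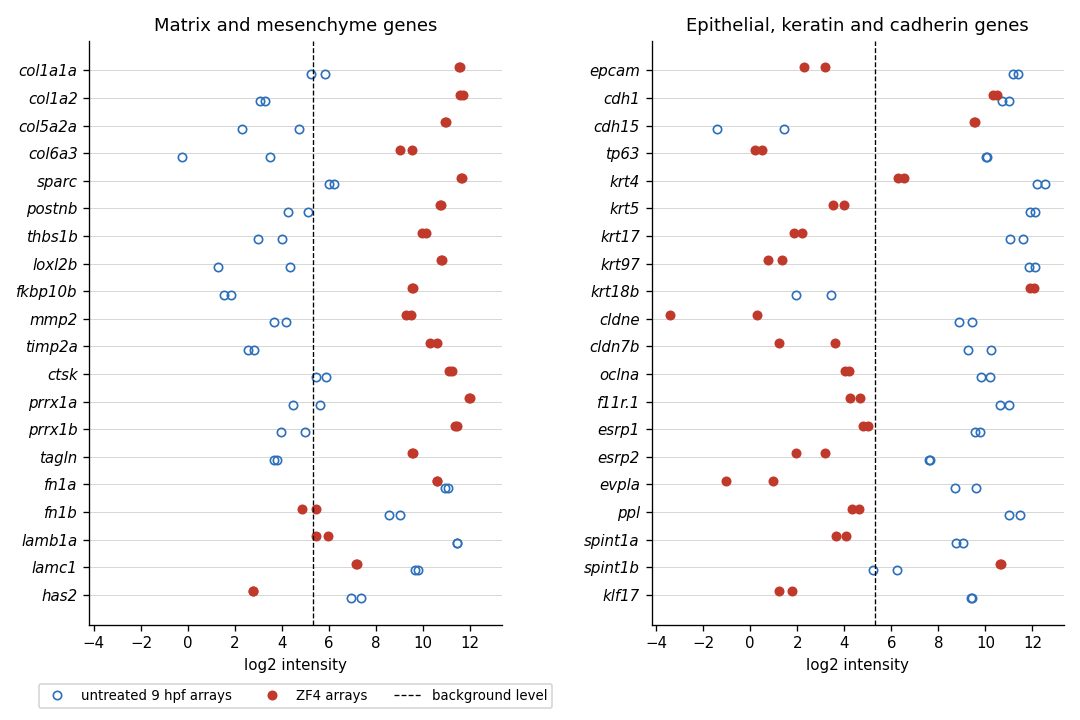
Log2 intensity of matrix and mesenchyme genes (left) and of epithelial genes (right) on each ZF4 and each untreated 9 hpf embryo array, with the background of 5.302 as a dashed line. Most matrix genes lie higher in ZF4 with lamb1a, lamc1, fn1b and has2 lower and fn1a close to the embryos, and most epithelial genes lie lower in ZF4, with cdh15, krt18b and spint1b higher and cdh1 close to the embryos.

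Genes of cell attachment and contraction were more often higher than lower. Of 25 integrin and focal adhesion genes 14 were higher (56%, against 25.3% of all genes) and 4 lower (16%, against 26.2%), with a median of 1.26. The laminin receptor subunit itga6b was at least 13.4-fold higher, and the focal adhesion kinase gene ptk2aa (1.85 ± 0.43), the adaptor paxillin (pxna, 1.26 ± 0.31) and the caveolar coat protein cav1 (3.02 ± 0.58) were higher. The talin tln2a, which ties integrins to actin, was at least 7.04-fold lower. The fibronectin receptor subunit itga5 was not called (8.29 and 8.13 in ZF4 and 7.55 and 8.51 in the embryos).

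Among actin and contractile genes, 22 of 51 were higher (43.1%, against 25.3% of all genes) and 10 were lower (19.6%, against 26.2%), with a median of 0.38. Tagln, a smooth muscle and myofibroblast actin-binding protein, was at 9.54 and 9.56 in ZF4 and 3.68 and 3.80 in the embryos, at least 19-fold higher. The cross-linker gene actn1 was at 11.20 and 11.23 in ZF4 and 4.79 and 5.38 in the embryos, a change of 6.13 ± 0.60 (adjusted p = 8.10e-06) with 1 embryo array above background, and the tropomyosin tpm4a (3.90 ± 0.45, and 3.21 to 4.59 without 1 embryo array), the LIM protein csrp1a (4.19 ± 0.22) and filamin A (flna, 3.14 ± 0.34) were higher on arrays that all exceeded background. Genes of actin monomer handling went the other way: cfl1l, a cofilin-like actin-severing protein, and the thymosin tmsb1 were at least 48.9-fold and 71.9-fold lower, and profilin pfn1 changed by -3.67 ± 0.15. The cytoplasmic actins were nearly even, actb1 at 0.25 ± 0.07 and actb2 at -0.27 ± 0.08, and neither call held without ZF4 array 1, without ZF4 array 2 or without untreated 9 hpf array 1. Skeletal muscle actin acta1a was at 10.14 and 10.36 in ZF4 and 5.23 and 5.34 in the embryos, a change of 4.97 ± 0.57 with 1 embryo array above background, and it is 1 of the muscle markers counted above.

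Within the keratin family some members were higher and others lower, each by large amounts. Krt18b, a keratin of simple epithelia, was at 11.92 and 12.07 in ZF4 and 3.42 and 1.97 in the embryos, at least 103-fold higher in ZF4. The surface epithelium keratins krt5, krt97 and krt17 (2.22 and 1.85 in ZF4 and 11.60 and 11.06 in the embryos) were at least 104-fold, 102-fold and 65.4-fold lower, and krt4 (6.55 and 6.27 in ZF4 and 12.54 and 12.18 in the embryos) changed by -5.95 ± 1.33. The 2 keratins most often paired in simple epithelia, krt8 (12.40 and 12.41 in ZF4 and 12.86 and 12.27 in the embryos) and krt18a.1 (12.08 and 12.03 in ZF4 and 12.53 and 12.30 in the embryos), were not called. Of 22 intermediate filament and lamin genes 3 were higher (13.6%, against 25.3% of all genes) and 6 were lower (27.3%, against 26.2%). The lamin lmnb2 was lower (-1.31 ± 0.28).

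Epithelial junction and identity genes were mostly lower in ZF4, and most of the lower ones were at background there. Of 39 measured genes 28 were lower (71.8%, against 26.2% of all genes) and 4 were higher, with a median change of -4.79. The adhesion molecule epcam was at 3.19 and 2.28 in ZF4 and 11.40 and 11.16 in the embryos, at least 63.1-fold lower. Claudins cldne and cldn7b, occludin (oclna) and f11r.1, all of the tight junction, were at least 14.7-fold, 21.8-fold, 25.9-fold and 45.9-fold lower, and the epidermal regulator tp63 and the epithelial splicing factor esrp1 were at least 26.7-fold and 20.5-fold lower. These genes were above background on both embryo arrays and on neither ZF4 array. Other tight junction genes went the other way or were not called: the claudin cldni was at least 12.5-fold higher, cgnl1 was higher (1.83 ± 0.17), and cldng (11.75 and 12.11 in ZF4 and 11.92 and 12.14 in the embryos) and cldn12 (9.90 and 9.58 in ZF4 and 9.91 and 9.78 in the embryos) were high on all 4 arrays and were not called.

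The classical cadherins did not follow the other epithelial genes. E-cadherin, cdh1, the main adhesion molecule of epithelia and of the early embryo, was above background on all 4 arrays (10.35 and 10.49 in ZF4 and 11.02 and 10.71 in the embryos) with a change of -0.45 ± 0.16 (adjusted p = 0.0382). This call was lost without either ZF4 array, without untreated 9 hpf array 1, after quantile normalization and with no intensity trend in the spread. N-cadherin, cdh2, was not called (10.55 and 10.64 in ZF4 and 11.12 and 11.07 in the embryos, adjusted p = 0.223), and cdh15, a cadherin of muscle, was at 9.53 and 9.54 in ZF4 and -1.40 and 1.44 in the embryos, at least 18.8-fold higher. The matriptase inhibitors spint1a and spint1b split as well, with spint1a at least 12-fold lower and spint1b at 10.61 and 10.69 in ZF4 and 6.25 and 5.21 in the embryos, a change of 4.92 ± 0.37 with 1 embryo array above background. Of 17 cadherin and other adhesion genes 2 were higher (11.8%, against 25.3% of all genes) and 6 lower (35.3%, against 26.2%). The paraxial protocadherin gene pcdh8 was at least 3.65-fold lower.

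Genes of the enveloping layer, the embryo's outermost epithelium, were lower in 18 of 32 cases and higher in 4 (median -4.69). The calpain capn9 and the periplakin gene ppl, a component of the cell envelope, were at least 50.4-fold and 61.9-fold lower, and klf17, a transcription factor of this layer, was at least 17.3-fold lower. Its members that were higher in ZF4 all belong to the annexin and S100 families: s100a10b (12.32 and 12.28 in ZF4 and 5.01 and 5.77 in the embryos), its binding partner anxa2a (11.43 and 11.33 in ZF4 and 7.18 and 6.02 in the embryos), icn and s100v2. Over the annexins, S100 proteins and galectins, 14 of 29 were higher (48.3%, against 25.3% of all genes) and 7 were lower (24.1%, against 26.2%). Annexins anxa2a (4.78 ± 0.64), anxa4 (4.67 ± 0.34) and anxa5b (4.04 ± 0.36) were higher, and anxa1c was at least 34.6-fold lower. S100w was at least 33-fold higher and s100a1 at least 45-fold lower.

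Transcription factors of mesenchyme were higher in 30% of cases and lower in 22%, close to the 25.3% and 26.2% of all genes. The limb and head mesenchyme homeobox gene prrx1b was at 11.43 and 11.34 in ZF4 and 3.97 and 4.96 in the embryos, at least 67.8-fold higher in ZF4, and its paralog prrx1a was at 11.99 and 11.94 in ZF4 and 5.60 and 4.45 in the embryos, a change of 6.94 ± 0.58 with 1 embryo array above background. The AP-1 subunits jun (11.32 and 11.10 in ZF4 and 6.44 and 7.10 in the embryos, 4.43 ± 0.55), fosl2 (4.37 ± 0.47) and junbb (4.19 ± 0.73, and 3.16 to 5.22 without 1 embryo array), which respond to serum and growth factors, and the nuclear factor nfia (at least 6.59-fold) were higher. The forkhead gene foxc1b and klf11a were at least 2.8-fold and 4.73-fold lower, and klf2b changed by -3.67 ± 0.31. The factors of epithelial to mesenchymal transition zeb1b (-1.17 ± 0.34), zeb2a (-2.25 ± 0.83) and snai1a (-0.84 ± 0.20) were called lower, and each of these calls was lost without untreated 9 hpf array 1, that of zeb1b also without ZF4 array 2 and that of zeb2a when any array was left out. Their relative snai2 was not called (7.42 and 7.22 in ZF4 and 5.90 and 6.93 in the embryos). Of 50 genes 15 were higher and 11 were lower (median 0.68), and 7 were lower when untreated 9 hpf array 1 was left out.

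Of the genes that respond to Yap, Srf and Tgf-beta, 6 of 21 were higher (28.6%) and 7 were lower (33.3%). These shares were close to the 25.3% and 26.2% of all genes. The matricellular Yap target ccn2a was at 11.46 and 11.39 in ZF4 and 5.09 and 5.06 in the embryos, at least 69.6-fold higher, and ccn1 was at 12.12 and 12.08 in ZF4 and 5.05 and 5.53 in the embryos, a change of 6.82 ± 0.36 with 1 embryo array above background. From the same list yap1 (-0.581 ± 0.142), ajuba (-1.63 ± 0.25) and nuak2 (-3.718 ± 0.285, with 1 ZF4 array above background) were lower. The inhibitors of bHLH factors, targets of Bmp signalling, differed by member. Id3 (-3.53 ± 0.26) and id4 (at least 3.53-fold) were lower and id2a (1.617 ± 0.361) was higher. Id1 (11.45 and 11.49 in ZF4 and 11.82 and 11.79 in the embryos) and id2b were not called.

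Growth factors and their receptors included genes of both directions. Of 41 ligands and receptors 13 were higher (31.7%, against 25.3% of all genes) and 7 lower (17.1%, against 26.2%), with a median of 0.58. Among ligands, the Egf-like hbegfa was at 11.04 and 11.16 in ZF4 and 1.96 and 1.97 in the embryos, at least 55.7-fold higher, and pdgfab and igf2b were at least 25.7-fold and 21.1-fold higher. Fgf8a, a gastrula and midbrain-hindbrain signal, was at least 12-fold lower. The midkines were opposite, with mdka at 2.66 ± 0.46 and mdkb at least 38.8-fold lower. Among receptors, erbb2 (3.64 ± 0.37, and 3.03 to 4.25 without 1 embryo array), met (2.80 ± 0.43) and fgfr2 (2.33 ± 0.43) were higher and the Wnt5 receptor ror2 (-3.18 ± 0.20) was lower. The insulin-like growth factor binding protein igfbp5b was at least 31.9-fold higher.

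Fgf feedback genes, which Fgf signalling induces and which then limit it, had 5 higher and 4 lower of 16, with 3 higher when untreated 9 hpf array 1 was left out. The shares, 31.2% higher and 25% lower, were close to the 25.3% and 26.2% of all genes. The Ets factors etv4 (at least 25.3-fold) and etv5b (-1.91 ± 0.28) were lower. So were the phosphatase dusp6 (-1.34 ± 0.33) and the receptor antagonist il17rd (-1.59 ± 0.15). The immediate early genes ier2a (1.74 ± 0.31) and ier5l (1.35 ± 0.28) and the phosphatase dusp5 (at least 2.04-fold) were higher. The phosphatase dusp2 (2.62 ± 0.81, and 1.93 to 3.31 without 1 embryo array) and the immediate early factor egr1 (4.55 ± 1.16, and 2.64 to 6.45 without 1 embryo array) were higher with 1 embryo array above background, calls lost without untreated 9 hpf array 1 and, for dusp2, also without either ZF4 array.

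The hox genes, which give cells positional identity along the body axis and lie in clusters numbered from anterior to posterior groups, included higher and lower members. From the hoxba cluster, hoxb4a was at 9.25 and 9.53 in ZF4 and 4.71 and 4.48 in the embryos, at least 17-fold higher, and hoxb6a was at 11.32 and 11.29 in ZF4 and 1.34 and 2.39 in the embryos, at least 64.1-fold higher. Hoxb5a was at 11.61 and 11.59 in ZF4 and 6.23 and 5.96 in the embryos, a change of 5.50 ± 0.57 (adjusted p = 1.16e-05). Hoxb3a was above background on all 4 arrays (9.78 and 9.93 in ZF4 and 8.69 and 7.99 in the embryos) and was not called (adjusted p = 0.177). Anterior to these, hoxb2a (6.78 and 6.23 in ZF4 and 4.75 and 1.83 in the embryos) was at least 2.3-fold higher, a call lost without ZF4 array 1 or without untreated 9 hpf array 2, and hoxb1a was at 3.68 and 4.33 in ZF4 and 7.09 and 6.16 in the embryos, at least 2.51-fold lower. Posterior to them, hoxb9a (2.84 and 3.72 in ZF4 and 7.04 and 6.79 in the embryos) was at least 3.07-fold lower, hoxb10a (3.95 and 4.38 in ZF4 and 6.91 and 6.25 in the embryos) was at least 2.42-fold lower, a call lost without either ZF4 array or without untreated 9 hpf array 1, and hoxb7a (4.68 and 5.02 in ZF4 and 5.29 and 5.56 in the embryos) and hoxb8a (4.96 and 3.68 in ZF4 and 5.0 and 4.88 in the embryos) were not called.

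From the hoxaa cluster hoxa4a was at least 8.15-fold higher (8.34 and 8.32 in ZF4 and 4.80 and 4.71 in the embryos), and hoxa3a was at 8.02 and 7.89 in ZF4 and 5.01 and 5.62 in the embryos, a change of 2.64 ± 0.46 with 1 embryo array above background. Hoxa1a of the same cluster was at 6.37 and 5.98 in ZF4 and 2.99 and 4.43 in the embryos, at least 1.83-fold higher (adjusted p = 0.0462), a call lost without either ZF4 array, without untreated 9 hpf array 1 or with the arrays shifted to a common median. From the hoxc clusters hoxc8a (5.18 and 4.65 in ZF4 and 10 and 9.81 in the embryos), hoxc6a (3.85 and 1.01 in ZF4 and 7.18 and 7.38 in the embryos) and hoxc6b (-0.19 and 0.08 in ZF4 and 7.23 and 5.85 in the embryos) were at least 24.3-fold, 3.95-fold and 2.36-fold lower, the last 1.46-fold without untreated 9 hpf array 1, and hoxc9a was not called (5.77 and 5.53 in ZF4 and 6.42 and 6.02 in the embryos). Of the 8 higher hox genes 5 were of groups 3 to 6 in the a and b clusters, and the other 3 were hoxa1a, hoxb2a and hoxc11a. Not all measured genes of these groups and clusters were higher. Besides hoxb3a, hoxa5a (3.61 and 2.66 in ZF4 and 3.82 and 3.94 in the embryos) was not called. Hoxb5b (4.90 and 4.49 in ZF4 and 6.02 and 5.59 in the embryos) and hoxb6b (3.85 and 3.05 in ZF4 and 5.65 and 4.94 in the embryos) were not called either.

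Of the 42 hox genes measured, from a list of 49, 8 were higher (19%, below the 25.3% of all genes) and 7 were lower (16.7%, below 26.2%), with a median change of -0.68. Of the called genes hoxc11a and hoxa13b were at background in both sample types. The count of higher genes was 5 without ZF4 array 1. The count of lower genes was 11 with a pseudocount on the linear scale or with the mean over a gene's probe sets. On the RA-treated 9 hpf arrays hoxb4a was at 7.05 and 5.26, hoxb5a at 8.84 and 7.41 and hoxb6a at 5.22 and 4.51, below both ZF4 arrays. There hoxa3a was at 8.46 and 7.79, hoxa4a at 9.25 and 7.57 and hoxb2a at 8.02 and 6.68, which overlapped the ZF4 levels. Hoxb6a was at background on all 12 embryo arrays of the series.

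**Figure D3:**
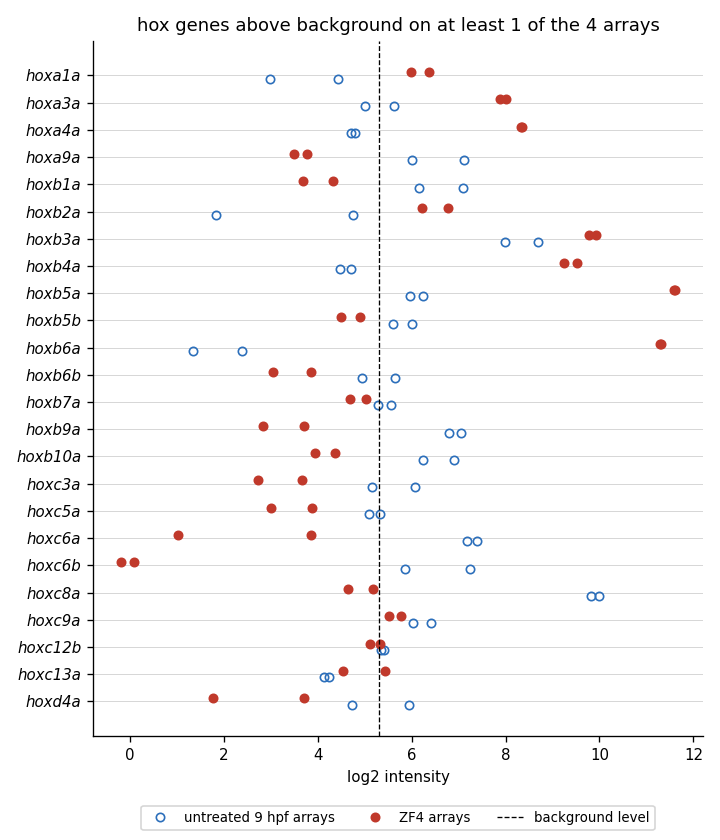
Log2 intensity of 24 hox genes, those above background on at least 1 of the 4 arrays, on each ZF4 and untreated 9 hpf embryo array, ordered by cluster and group number, with the background of 5.302 as a dashed line. In the hoxba cluster hoxb2a, hoxb4a, hoxb5a and hoxb6a stand higher in ZF4 and hoxb1a, hoxb9a and hoxb10a stand lower.

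Cofactors of the Hox proteins included higher and lower members of 1 family. The TALE homeobox genes meis1a (9.18 and 9.27 in ZF4 and 4.45 and 5.49 in the embryos, 4.26 ± 0.52) and meis2a (8.16 and 8.0 in ZF4 and 4.18 and 4.77 in the embryos, at least 6.86-fold) were higher in ZF4, and meis3 (2.83 and 4.37 in ZF4 and 10.13 and 10.04 in the embryos) and meis2b (3.88 and 4.15 in ZF4 and 9.53 and 9.39 in the embryos) were at least 27.5-fold and 17.8-fold lower. Pbx4 (7.72 and 7.43 in ZF4 and 9.84 and 9.40 in the embryos), the main Pbx gene of the early zebrafish embryo, changed by -2.05 ± 0.25, and pbx2 by -1.05 ± 0.15. Meis1a was above background on 1 embryo array. Pbx3b (8.14 and 7.97 in ZF4 and 4.41 and 4.25 in the embryos) was at least 6.74-fold higher, a call lost without ZF4 array 1 or without untreated 9 hpf array 2.

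Over the list of TALE and hindbrain factors 6 of 30 were higher (20%, against 25.3% of all genes) and 15 lower (50%, against 26.2%), with a median of -0.99. The caudal gene cdx4, an activator of posterior hox genes, was at 2.29 and 4.50 in ZF4 and 11.98 and 12.06 in the embryos, at least 105-fold lower, and the Iroquois genes irx1b and irx7 were at least 26.2-fold and 39.8-fold lower. The nuclear receptor nr2f2, present in mesenchyme of mammals, was at least 9.66-fold higher. Of 25 genes of RA metabolism and reception 3 were higher (12%, against 25.3% of all genes) and 7 lower (28%, against 26.2%). The RA-degrading enzymes were opposite: cyp26a1 was at 2.19 and -0.95 in ZF4 and 11.47 and 11.53 in the embryos, at least 73.5-fold lower, and cyp26b1 was at 7.83 and 8.02 in ZF4 and 4.76 and 4.82 in the embryos, at least 6.16-fold higher. The RA-synthesizing aldh1a2 (7.61 and 7.65 in ZF4 and 10.23 and 10.54 in the embryos, -2.76 ± 0.32) and the receptors raraa (-2.81 ± 0.39) and rarab (-1.46 ± 0.18) were lower.

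Regulators that pattern the gastrula were lower across the germ layers. Of 52 neural plate and forebrain factors 32 were lower and 2 were higher (median -4.35). The neural SoxB genes sox3 (4.73 and 4.45 in ZF4 and 11.28 and 11.51 in the embryos), sox19a (0.44 and -0.30 in ZF4 and 10.98 and 10.96 in the embryos) and sox2 (3.62 and 0.02 in ZF4 and 10.36 and 10.40 in the embryos) were at least 68.4-fold, 50.8-fold and 33.8-fold lower, and zic2b, a zinc finger factor of the neural plate, was at least 72.9-fold lower. The 2 higher members were the Notch ligand dld (1.98 ± 0.18) and the receptor notch2, a call lost when either ZF4 array or untreated 9 hpf array 2 was left out. The receptor notch1a was at least 17.7-fold lower.

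Of 34 mesoderm, somite and tailbud factors 23 were lower and 1, the Bmp antagonist nog1 (1.32 ± 0.33), was higher (median -3.64). Tbxta (Brachyury, 3.60 and 3.22 in ZF4 and 10.36 and 10.67 in the embryos) and the paraxial mesoderm factors tbx16 (3.61 and 4.90 in ZF4 and 10.58 and 11.02 in the embryos) and msgn1 (2.29 and 4.08 in ZF4 and 11.87 and 11.79 in the embryos) were at least 37.2-fold, 45-fold and 92.2-fold lower. Of 17 endoderm factors 9 were lower and none was higher, 1 at an unadjusted p under 0.05 by limma (median -3.48). The endoderm determinant sox32 and the forkhead gene foxa2 were at least 28.6-fold and 21.6-fold lower. For all 3 germ layers the lower genes named here were at background on both ZF4 arrays.

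Signals of the dorsal and ventral gastrula were likewise lower on the whole, with a receptor and an intracellular transducer among the exceptions. Of 24 Nodal and organizer genes 15 were lower (62.5%, against 26.2% of all genes) and 6 were higher (25%, against 25.3%), with a median of -3.83. The Nodal co-receptor tdgf1, the Nodal antagonist lft1 and the organizer gene gsc were at least 27.6-fold, 11.8-fold and 18.8-fold lower, and the transducer smad2 (1.18 ± 0.19) was higher. Of 37 ventral, Bmp and epidermal genes 21 were lower and 5 higher (median -2.00), with 3 higher without ZF4 array 1 and 3 without untreated 9 hpf array 1. The ventral repressors vox and ved were at least 60.1-fold and 53.6-fold lower, the ligands bmp4 (-2.87 ± 0.43, and -3.53 to -2.2 without 1 embryo array) and bmp2b (-2.52 ± 0.61) were lower, and the receptor bmpr1ab (2.81 ± 0.46) was higher.

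In the Wnt pathway 19 of 35 genes were lower and 5 were higher (median -1.31). Of the lower ones, wnt11 was at background in both sample types. The direct target sp5l was at -0.57 and 1.42 in ZF4 and 11.52 and 11.66 in the embryos, at least 78.2-fold lower, sp5a was at least 20.5-fold lower, and the feedback target axin2 (-1.97 ± 0.17) and the nuclear effector lef1 (-2.18 ± 0.18) were lower. Of the Frizzled receptors, fzd8a (-4.1 ± 0.34), fzd9b (-2.92 ± 0.44), fzd7a (-2.56 ± 0.39) and fzd7b (-2.10 ± 0.18) were lower and fzd2 (2.16 ± 0.37) was higher. Apart from fzd2, the higher genes were all secreted antagonists: dkk1b (2.00 ± 0.43), dkk2 (at least 3.29-fold), wif1 (3.0 ± 0.46) and dkk3b, the last a call lost without either ZF4 array or without untreated 9 hpf array 2. The antagonists sfrp1a and frzb were lower, by at least 39.7-fold and 9.72-fold.

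Maternal and early pluripotency genes were lower in 27 of 37 cases and higher in 2 (median -2.52). Of the lower ones, btg4 and eomesa were at background in both sample types. Pou5f3, the zebrafish Oct4 homolog that opens the zygotic genome, was at 3.60 and 2.31 in ZF4 and 11.14 and 11.66 in the embryos, at least 68.4-fold lower. Its partners nanog (3.33 and 5.03 in ZF4 and 7.78 and 8.16 in the embryos) and sox19b (2.71 and 4.05 in ZF4 and 9.42 and 9.39 in the embryos) were at least 6.35-fold and 17.2-fold lower. Of 15 germ cell genes 8 were lower and 1 higher. Of the lower ones, piwil1 and rgs14a were at background in both sample types. The translational repressor nanos3 and the helicase ddx4 (Vasa) were at least 11.6-fold and 5.4-fold lower. Nanos1 was at 8.67 and 8.55 in ZF4 and 1.33 and 1.44 in the embryos, at least 9.89-fold higher.

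Yolk layer and lipoprotein genes were lower in 16 of 37 cases and higher in 2 (median -2.5). Of the lower ones, fabp7a was at background in both sample types. The apolipoproteins apoeb (4.73 and 1.66 in ZF4 and 12.72 and 12.33 in the embryos) and apoc1 (1.83 and 2.03 in ZF4 and 12.31 and 12.29 in the embryos) were at least 149-fold and 128-fold lower. For apoa1a (4.1 and 2.72 in ZF4 and 11.93 and 7.87 in the embryos), another apolipoprotein, and the iron carrier gene tfa (1.67 and 1.1 in ZF4 and 11.42 and 6.71 in the embryos) the embryo arrays differed from each other more widely, and these genes were at least 24.2-fold and 13.6-fold lower, bounds that were 5.92-fold and 2.65-fold without untreated 9 hpf array 1. The number of lower genes was 8 without ZF4 array 1, 7 without ZF4 array 2, 8 without untreated 9 hpf array 1 and 10 with no intensity trend in the spread. The measured yolk markers, with a higher mean on embryo array 1, all belong to this list, so their mean repeats these values.

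**Figure D4:**
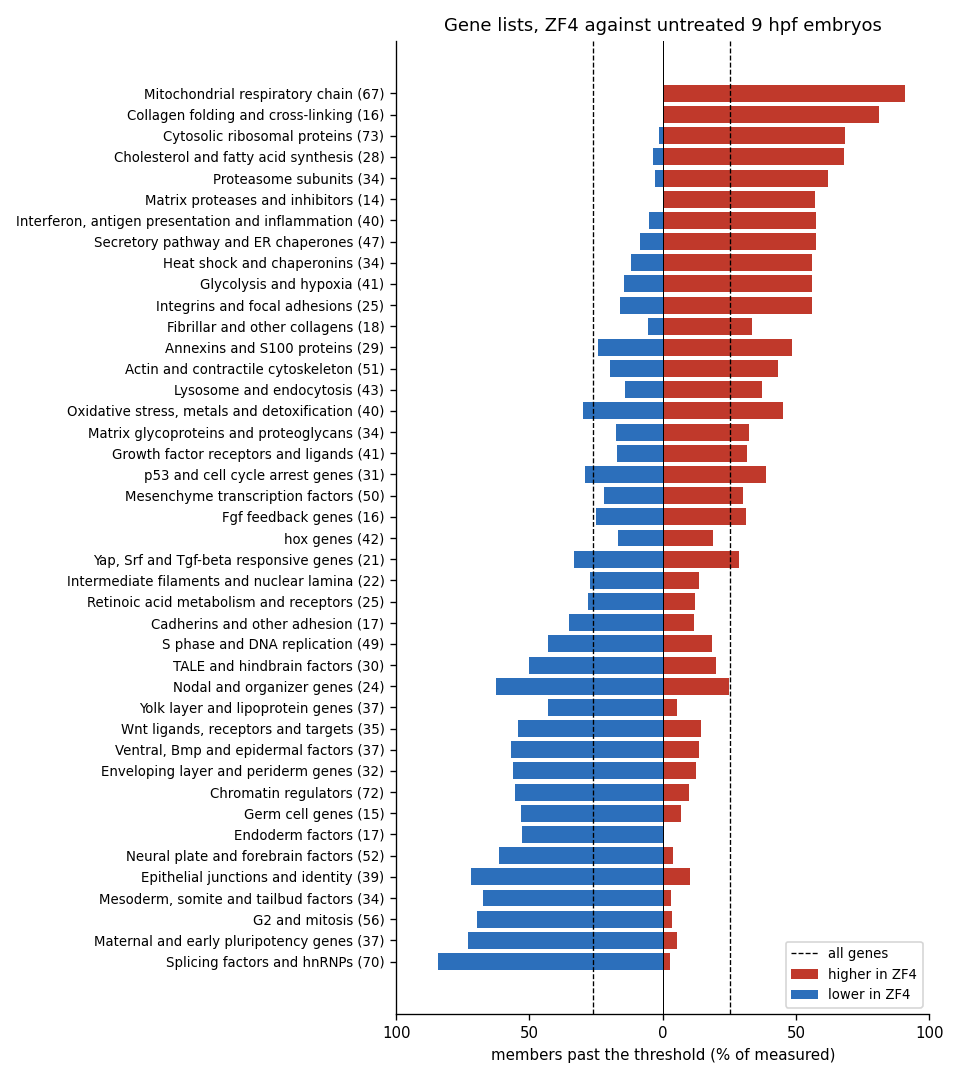
Share of the measured genes of each of the 42 gene lists called higher (right) or lower (left) in ZF4, in percent, with dashed lines at the shares over all genes, 25.3% higher and 26.2% lower. Respiratory chain and collagen folding genes extend farthest to the right, and splicing, maternal and epithelial genes extend farthest to the left.

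The cell division programme of the gastrula was lower in ZF4, by modest amounts and on arrays where nearly all its genes were above background. Of 56 genes of G2 and mitosis 39 were lower and 2 were higher (median -1.04). Cyclin ccnb2 was at 6.20 and 5.95 in ZF4 and 9.50 and 9.74 in the embryos, a change of -3.54 ± 0.19 (adjusted p = 9.17e-08), the repressor of the cycle's E2F programme e2f8 changed by -4.40 ± 0.25, and foxm1 (-1.78 ± 0.20), cdc20 (-1.49 ± 0.13), mki67 (-1.24 ± 0.20) and the kinase plk1 (-0.90 ± 0.14) were lower. The mitotic kinase gene cdk1 was high on all 4 arrays and was not called (10.33 and 10.28 in ZF4 and 10.38 and 10.45 in the embryos). The spindle midzone genes were opposite, with prc1b at 1.77 ± 0.33 and prc1a at -2.40 ± 0.16.

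Of 49 genes of S phase 21 were lower (42.9%, against 26.2% of all genes) and 9 were higher (18.4%, against 25.3%), with a median of -0.52. The count of higher genes was 5 without ZF4 array 1 and 5 without untreated 9 hpf array 1. The origin licensing genes cdc6 (6.59 and 6.37 in ZF4 and 10.40 and 10.81 in the embryos, -4.13 ± 0.17) and cdt1 (-1.95 ± 0.13) and the G1/S cyclin ccne1 (6.45 and 6.82 in ZF4 and 9.68 and 10.15 in the embryos, -3.28 ± 0.19) were lower, and the helicase subunits mcm4 (-0.84 ± 0.11) and mcm7 (-0.93 ± 0.17) were lower by smaller amounts. The nucleotide synthesis gene tyms (1.65 ± 0.23) and the replication fork gene gins2 (2.16 ± 0.35) were higher.

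Genes of p53 response and cycle arrest were mixed (median 0.57). Of 31 genes 12 were higher (38.7%, against 25.3% of all genes) and 9 were lower (29%, against 26.2%). Phlda2, known as an imprinted growth restrictor in mammals, was at 11.38 and 11.39 in ZF4 and 3.68 and 4.70 in the embryos, at least 67.8-fold higher, and the stress genes gadd45bb (3.70 ± 0.54) and phlda3 (4.00 ± 0.38) and the death receptor fas (at least 4.91-fold) were higher. The Cdk inhibitor cdkn1ca (0.10 and 0.39 in ZF4 and 10.55 and 10.70 in the embryos), the cyclin-like ccng2 and the mTOR inhibitor ddit4 were at least 40-fold, 11-fold and 19.4-fold lower.

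Energy metabolism differed at nearly every step of glycolysis. Of 41 genes of glycolysis and hypoxia 23 were higher and 6 were lower (median 1.72), with 3 lower without ZF4 array 2. The phosphofructokinase pfkpa (11.02 and 11.03 in ZF4 and 3.58 and 4.19 in the embryos), lactate dehydrogenase ldha (10.88 and 10.98 in ZF4 and 4.76 and 3.98 in the embryos) and aldolase aldocb (10.55 and 10.44 in ZF4 and 0.97 and 4.85 in the embryos) were at least 52.8-fold, 49.5-fold and 36.5-fold higher. The isomerase gpia (4.90 ± 0.30), phosphoglycerate mutase pgam1a (4.86 ± 0.51, and 4.16 to 5.56 without 1 embryo array), enolase eno1a (5.73 ± 0.41, and 4.98 to 6.47 without 1 embryo array) and pyruvate kinase pkma (5.28 ± 0.24) were higher on arrays that all exceeded background. The aldolase aldoaa (12.08 and 12.12 in ZF4 and 11.84 and 11.92 in the embryos) and lactate dehydrogenase ldhba (10.91 and 11.01 in ZF4 and 10.63 and 10.68 in the embryos) were high on all 4 arrays and were not called. The pyruvate kinase pklr (6.60 and 6.15 in ZF4 and 5.43 and 6.31 in the embryos) was not called either. Pfkma, gpib and pgam2 were at background in both sample types and not called, and the aldolase aldoca was called lower while at background in both.

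At 1 step of the pathway the 2 genes for the same enzyme went in opposite directions. Gapdhs, a glyceraldehyde-3-phosphate dehydrogenase gene, was at 12.34 and 12.31 in ZF4 and 5.78 and 6.34 in the embryos, a change of 6.27 ± 0.34 (adjusted p = 9.51e-08). Gapdh was at 5.39 and 5.87 in ZF4 and 10.86 and 10.80 in the embryos, a change of -5.20 ± 0.17 (adjusted p = 1.84e-09), and its ZF4 levels were little above background. The groups did not overlap for either gene, and gapdh is a gene often used as a constant reference in expression work. Known hypoxia targets outside glycolysis went both ways: the carbonic anhydrase ca9 was at least 8.54-fold lower, and the growth factor vegfaa (at least 1.84-fold) and ndrg1a (1.49 ± 0.30) were higher. The hypoxia factor hif1ab was not called (10.77 and 10.98 in ZF4 and 10.69 and 10.67 in the embryos).

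**Figure D5:**
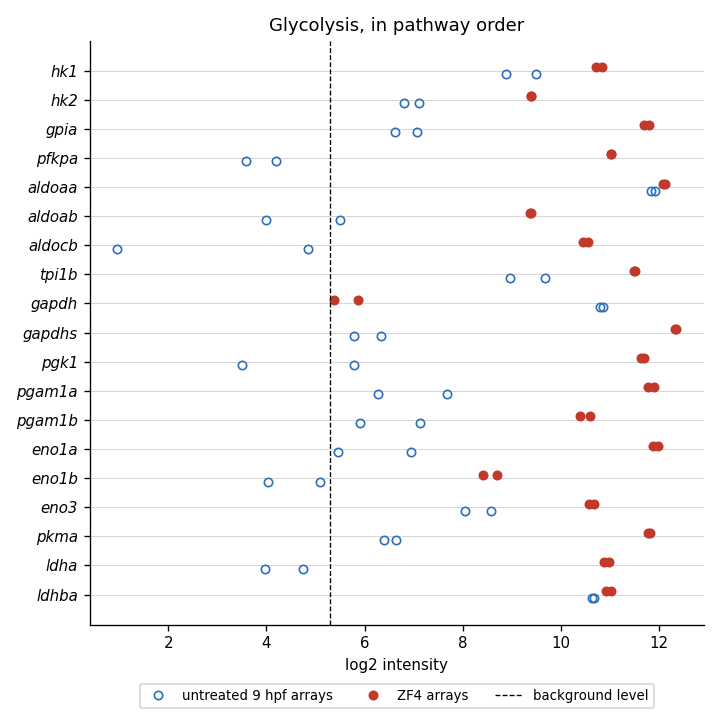
Log2 intensity of 19 chosen glycolytic genes in the order of the pathway on each ZF4 and untreated 9 hpf embryo array, with the background of 5.302 as a dashed line. Gapdhs and gapdh are displaced in opposite directions, aldoaa and ldhba lie close together on all arrays, and the other genes shown lie higher in ZF4. Pklr, pfkma, gpib and pgam2, which were not called, and aldoca are not shown.

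Genes of the mitochondrial respiratory chain were higher almost without exception. Of 67 nuclear-encoded subunits 61 were higher (91%) and none was lower, 0 also at an unadjusted p under 0.05 by limma, with a median change of 1.09. The complex IV subunit cox6b1 was at 11.11 and 11.03 in ZF4 and 4.39 and 5.12 in the embryos, at least 54.4-fold higher, and ndufa4b was at least 20.8-fold higher. Most others differed by about the median: ndufa9a of complex I changed by 2.17 ± 0.24, sdhb of complex II by 1.05 ± 0.17, uqcrc1 of complex III by 1.90 ± 0.15 and atp5l of the ATP synthase by 2.2 ± 0.22.

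Lipid synthesis genes were higher as well. Of 28 genes of cholesterol and fatty acid metabolism 19 were higher and 1 was lower (median 2.64). The sterol enzymes msmo1 (10.88 and 10.81 in ZF4 and 2.60 and 2.80 in the embryos) and nsdhl (10.39 and 10.16 in ZF4 and 1.74 and 3.81 in the embryos) and the fatty acid desaturase fads2 (11.13 and 11.01 in ZF4 and 3.02 and 2.30 in the embryos) were at least 46.7-fold, 31.4-fold and 54.5-fold higher. Hmgcs1 (4.52 ± 0.67, and 3.49 to 5.55 without 1 embryo array), early in the mevalonate pathway, the sterol sensor partner insig1 (3.98 ± 0.50, and 3.21 to 4.74 without 1 embryo array) and acetyl-CoA carboxylase acaca (3.12 ± 0.44) were higher. Most of these are known targets of sterol-regulated transcription.

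Antioxidant genes were partly higher (median 0.89). Of 40 genes 18 were higher (45%, against 25.3% of all genes) and 12 were lower (30%, against 26.2%). The peroxiredoxin prdx1 was at 11.90 and 11.95 in ZF4 and 7.02 and 7.12 in the embryos, a change of 4.86 ± 0.21, and glutathione reductase gsr (3.99 ± 0.26), catalase cat (2.49 ± 0.22) and the superoxide dismutases sod1 (2.32 ± 0.20) and sod2 (1.98 ± 0.18) were higher. Nqo1, like prdx1 a known target of the factor Nrf2, was at 5.80 and 5.26 in ZF4 and 10.97 and 10.09 in the embryos, a change of -5.0 ± 0.37 (adjusted p = 9.95e-07) with 1 ZF4 array above background. The lipid peroxidase genes were opposite, gpx4b at 0.95 ± 0.17 and gpx4a at least 10.3-fold lower (3.03-fold without untreated 9 hpf array 1).

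Genes of protein synthesis, folding and turnover were shifted upward by small amounts. Of 73 ribosomal protein genes 50 were higher and 1 was lower (median 0.43), for example rpsa (13.55 and 13.54 in ZF4 and 12.41 and 12.35 in the embryos, 1.16 ± 0.10) and rps4x (1.03 ± 0.11). This count was 33 with the arrays shifted to a common median and 27 with no intensity trend in the spread. Of 34 proteasome subunits 21 were higher and 1 lower (median 0.64), with psmd10 at 1.84 ± 0.18 and psmb1 at 0.95 ± 0.11. Of 47 secretory pathway and endoplasmic reticulum genes 27 were higher and 4 lower (median 0.58), and 17 were higher without ZF4 array 2. The cargo receptor lman1 (9.46 and 9.48 in ZF4 and 6.84 and 6.68 in the embryos, 2.71 ± 0.21) and the chaperones pdia3 (2.45 ± 0.23) and hspa5 (2.04 ± 0.20) were higher.

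Among heat shock and chaperonin genes 19 of 34 were higher and 4 were lower (median 0.60). The small heat shock proteins were opposite: hspb8 was at 10.81 and 10.52 in ZF4 and 4.60 and 4.91 in the embryos, at least 41.2-fold higher, and hspb1 was at 6.37 and 5.90 in ZF4 and 12.72 and 12.89 in the embryos, a change of -6.67 ± 0.78 (adjusted p = 2.78e-05). The inducible hsp90aa1.1 (4.06 ± 0.36) was higher, and the constitutive hsp90ab1 (12.22 and 12.33 in ZF4 and 12.41 and 12.47 in the embryos) was not called. Of 43 lysosome and endocytosis genes 16 were higher (37.2%, against 25.3% of all genes) and 6 lower (14%, against 26.2%), with a median of 0.56. Cathepsins went both ways, ctsz at least 7.88-fold higher and ctsc (-2.45 ± 0.47, and -3.09 to -1.80 without 1 embryo array) lower, and the membrane proteins lamp1a (1.60 ± 0.27) and cd63 (2.32 ± 0.24) were higher.

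Immune defence genes formed another group higher in ZF4. Of 40 genes of interferon response, antigen presentation and inflammation 23 were higher (57.5%) and 2 were lower (median 2.71). The interferon-induced ubiquitin-like isg15 was at 11.39 and 11.28 in ZF4 and 2.92 and 4.33 in the embryos, at least 65.3-fold higher, and the interferon regulatory factors irf1b and irf7 were at least 26.1-fold and 12-fold higher. For presentation of peptides on class I molecules, the heavy chain gene mhc1zba (10.95 and 11.09 in ZF4 and 5.45 and 6.42 in the embryos, 5.08 ± 0.38), its light chain b2m (11.50 and 11.64 in ZF4 and 7.07 and 6.54 in the embryos, 4.76 ± 0.43) and the immunoproteasome subunits psmb8a (at least 19.9-fold) and psmb9a (at least 5.41-fold) were higher. The chemokine cxcl12b was at least 29.5-fold lower. No blood or macrophage marker was higher in ZF4, and 0 and 1 of 12 were above background on its arrays.

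RNA splicing genes were mostly lower. Of 70 splicing factors and hnRNPs 59 were lower (84.3%) and 2 were higher (median -0.96). The RNA helicase ddx39b was at 6.11 and 5.95 in ZF4 and 8.98 and 8.50 in the embryos, a change of -2.71 ± 0.25, and the branch point factors sf3b2 (-2.69 ± 0.21) and sf1 (-1.30 ± 0.12), the 3' splice site factor u2af1 (-2.05 ± 0.28) and the SR protein srsf3b (-2.06 ± 0.16) were lower. The higher members were hnrnph1 (1.60 ± 0.38) and hnrpkl (1.38 ± 0.34).

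Chromatin regulators were lower in 40 of 72 cases and higher in 7 (median -0.69). The high mobility group gene hmgb3a was at 1.63 and 2.30 in ZF4 and 11.30 and 11.57 in the embryos, at least 70-fold lower, and the DNA methyltransferase dnmt3bb.2 and the histone demethylase kdm6ba were at least 28.5-fold and 22.7-fold lower. Polycomb genes differed by member: the histone methyltransferase ezh2 (-2.03 ± 0.21), cbx2 (-3.73 ± 0.17) and phc1 (-1.74 ± 0.26) were lower, and eed (10.19 and 10.29 in ZF4 and 9.83 and 10.21 in the embryos) was not called. The 2 ATPases of the BAF nucleosome remodeller went in opposite directions, both present in ZF4, with smarca2 (8.76 and 8.86 in ZF4 and 4.49 and 5.27 in the embryos) at least 11.4-fold higher and smarca4a (9.90 and 9.80 in ZF4 and 11.26 and 11.39 in the embryos) changing by -1.47 ± 0.13. The maintenance DNA methyltransferase dnmt1 was not called (9.32 and 9.25 in ZF4 and 9.88 and 9.91 in the embryos, adjusted p = 0.0663).

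Genes named for the size or the p-value of their change alone also covered secretion, transport and signalling. Stanniocalcin stc2a, a secreted glycoprotein, was at 12.09 and 12.14 in ZF4 and 6.61 and 5.75 in the embryos, a change of 5.94 ± 0.96 (adjusted p = 0.000327). The axon guidance ligand slit2 (10.58 and 10.58 in ZF4 and 5.70 and 5.37 in the embryos, 5.04 ± 0.67) and the neutral amino acid transporter slc1a4 (5.46 ± 0.56) were higher, and the endocytic receptor gene lrp1aa and the mitochondrial aminotransferase got2a were at least 33.4-fold and 16.9-fold higher. On the lower side were lfng, a glycosyltransferase that modifies Notch (6.04 and 5.99 in ZF4 and 11.01 and 10.98 in the embryos, -4.98 ± 0.43), the zona pellucida gene zp3.1 (-4.66 ± 0.22) and the T-box gene tbx16l (-4.28 ± 0.33). The RNA-binding igf2bp1 was at -0.37 and 0.45 in ZF4 and 10.68 and 10.79 in the embryos, at least 43.1-fold lower, and the fatty acid elongase elovl7a was at least 21.4-fold lower.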

How the data were processed

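RNA from whole embryos and from ZF4 cells was hybridised to Affymetrix zebrafish arrays, 14 arrays in 7 groups of 2. The authors made the deposited log2 values, 1 per probe set, with a mas5 background correction and invariant set normalization in the affy package (version 2.15.2 in the submitters' processing notes); the summary of probes into probe sets is not given in the sources used here.

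The log2 values were used as deposited. Of 15617 probe sets 115 controls were left out. Genes were named from the platform annotation, with symbols updated through Entrez identifiers: 10795 probe sets had 1 gene, 135 several and 4572 none, and a gene was represented by its brightest probe set. Limma 3.58.1 in R 4.3.3 fitted all 14 arrays by group with an intensity trend, and p-values were adjusted over all 15502 probe sets by Benjamini-Hochberg. The fit was tested on simulated data. Scan or hybridisation batches are not given in the sources used here.

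Named by rule were the 15 largest changes in each direction among genes above background on all 4 arrays, the 12 lowest p-values in each direction among genes at background in 1 sample type, every hox gene called or above background on both ZF4 arrays, and up to 5 called members per list and direction. A further 118 genes were chosen after their values were seen. Members and lists, 42 of genes and 10 of markers, were chosen with earlier results of these data known. Alternatives were 2 other scalings, a pseudocount of 32 on the linear scale, a filter on dim probe sets, no intensity trend, only the 4 arrays, the mean over a gene's probe sets, a replicate block and leaving out each array.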

Additional observations from a re-analysis of the deposited data

How the results depend on the processing

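The number of probe sets higher in ZF4 ranged from 3096 to 3785 and the number lower from 3481 to 3866 over the alternatives that kept all 4 arrays, and no call turned direction. Leaving out 1 array gave 2542 to 2863 higher and 2990 to 3206 lower, with 78.6% to 81.9% of the calls kept; the lone array of a group was then assumed to vary like the other groups. With the replicate number as a block, 3313 were higher and 3665 lower, and 97.7% of the calls were kept; the numbers do not pair the ZF4 with the untreated 9 hpf arrays, whose same-numbered deviations correlated at 0.0975. Between the other groups these correlations ranged from -0.696 (untreated and RA-treated 9 hpf) to 0.571 (untreated and RA-treated 4 hpf). Shifting the arrays to a common median moved the median change by -0.09. Of 454 named genes called, 397 were called under every alternative, and leaving out an array lost between 28 and 40 of them. Of the genes given as not called, 8 changed sign when 1 array was left out and were not called then either. Over the 4 such fits acta2 ranged from -0.01 to 0.38, cldn12 from -0.27 to 0.06, cldng from -0.28 to 0.08, itga5 from -0.30 to 0.66, krt8 from -0.46 to 0.14, hoxb8a from -1.26 to 0.02, twist1a from -0.11 to 0.01 and vim from -0.66 to 0.08. List counts of 5 or more that moved by over 1.5 times are given in the report, and smaller counts were not judged in this way. With the highest tag value, 5.834, as background, 8217 probe sets in ZF4 and 7821 in the embryos were above it on both arrays, against 9074 and 8768. Signal near background limits the folds given as bounds.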

Other observations

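Among paralog-named gene pairs, those whose symbols differ only in a final a or b, 662 had both members measured. Both were higher in ZF4 in 73 pairs, both were lower in 88, and the members were called in opposite directions in 61. Over all genes 25.3% were higher and 26.2% were lower, and the pair counts were not tested against these shares. Opposite pairs could be picked for naming, so those named do not stand for the 662. In a further 286 pairs 1 member was called and in 154 neither was. A final a or b does not always mark genome duplicates, so the pairs are described by name only. Beside those given in the report, the opposite pairs included sox9a (at least 4.73-fold higher, a call lost without ZF4 array 2), a cartilage and mesenchyme regulator, and sox9b (2.40 and 2.67 in ZF4 and 5.39 and 4.90 in the embryos, -2.61 ± 0.46), with 1 embryo array above background. Igf2b was at least 21.1-fold higher and igf2a at least 2.74-fold lower. Twsg1a and twsg1b, which bind Bmp ligands, were at least 3.56-fold higher and at -3.22 ± 0.23, and the kinases rock2a and rock2b, effectors of RhoA, were at 1.84 ± 0.33 and at least 4.87-fold lower.

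The same probe sets were then read on the other embryo arrays. Of the probe sets higher in ZF4, 848 were above background on both ZF4 arrays and at background on both untreated 9 hpf arrays. Of these, 360 were at background on all 12 embryo arrays of the series, at 4, 6 and 9 hpf and with or without RA. Another 5 were above background on the other 10 embryo arrays. Of the probe sets lower in ZF4, 922 were at background on both ZF4 arrays and above it on both untreated 9 hpf arrays. Of these, 431 were above background on all 12 embryo arrays. These 12 arrays include the 2 of the comparison, and the counts describe them without a test.

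Some genes gave different answers by probe set. Of 1539 genes with more than 1 probe set 19 had probe sets called in both directions. Among the genes named or on a list, 280 had more than 1 probe set and 6 had calls in both directions: calr, cdc42, copg2, cyp51, hnrnpa0b and hnrnpd. These were left undescribed in the report.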
